A study of Homo sapiens with 16 samples.

Results

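DNA replication and S phase genes are described here across 4 groups of A375 human melanoma cells. The set holds 43 named genes of the 18417 genes to which a transcript cluster of the array could be assigned. The 43 were chosen by name, for their role in S phase, and all of them were measured. Where a gene had more than 1 cluster, the one that was brightest on average stood for it, which concerned CLSPN and UHRF1.

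RNA from G10, A7, PCDNA3 and A375 cells was measured with 4 Affymetrix Human Gene 1.0 ST arrays per group. G10 and A7 are clones of A375 that carry a pcDNA3 vector with the human catalase cDNA, and each is 1 clone obtained by dilution, so clone and transgene cannot be told apart within a comparison. PCDNA3 cells are A375 cells with the vector alone, and A375 cells were not transfected; the 3 transfected groups were grown with geneticin, and RNA was taken before cultures were confluent. The study considers the average of PCDNA3 and A375 as control, and its methods call the 4 arrays of a condition biological replicates; nothing further says whether they came from separate cultures, so p values measure the spread between these arrays.

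Before a cell divides it copies its DNA once, during S phase. Origins are licensed when ORC, CDC6 and CDT1 load the MCM helicase; CDC45 and the GINS complex then activate it, primase and polymerases alpha, delta and epsilon make the new strands, and the PCNA clamp, its RFC loader, FEN1 and LIG1 complete them. Many of these genes are transcribed together at the G1/S boundary under E2F factors, and their mRNA level is widely used as a sign of how many cells of a culture are cycling. In RNA from whole cultures, fewer cells in S phase and less RNA per cell cannot be told apart.

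Promoter sequences are shown because the binding word of E2F was shared by many of the genes and was not used to choose them. RefSeq windows of 300 bases, 250 before to 50 after the start in GRCh38.p14, were matched by symbol for 39 of the 43 genes; MCM4, MCM5, POLD3 and RPA2 had none. At least 1 of the words TTTCCCGC, TTTCGCGC, TTTGCCGC and TTTGGCGC, read on both strands and allowed to overlap, lay in a window of 22 of the 39 genes (56.4%), against 5.51% of the 14239 genes on the array with a window. CCAAT, the word bound by NF-Y, lay in 61.5% of the 39, against 42.2%. The 100 bases before the start are given 5′ to 3′ on the strand of the gene, with E2F words in capitals, for members that were lower in G10 (MCM6, POLA2, RFC3, DTL and RRM1) and for TYMS, PCNA and E2F1, which did not pass the test. They lie at chr2:135876444-135876543 (minus strand), chr11:65261862-65261961 (plus strand), chr13:33818049-33818148 (plus strand), chr1:212035648-212035747 (plus strand), chr11:4094585-4094684 (plus strand), chr18:657553-657652 (plus strand), chr20:5126623-5126722 (minus strand) and chr20:33686386-33686485 (minus strand).
MCM6: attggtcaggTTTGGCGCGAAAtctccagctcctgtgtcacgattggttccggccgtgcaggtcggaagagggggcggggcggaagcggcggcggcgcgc
POLA2: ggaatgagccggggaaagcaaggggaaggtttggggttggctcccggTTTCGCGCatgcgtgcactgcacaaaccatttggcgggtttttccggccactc
RFC3: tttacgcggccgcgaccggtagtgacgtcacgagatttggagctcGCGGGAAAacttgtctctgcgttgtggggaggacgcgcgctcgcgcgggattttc
DTL: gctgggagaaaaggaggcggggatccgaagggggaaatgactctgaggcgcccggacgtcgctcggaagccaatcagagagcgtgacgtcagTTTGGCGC
RRM1: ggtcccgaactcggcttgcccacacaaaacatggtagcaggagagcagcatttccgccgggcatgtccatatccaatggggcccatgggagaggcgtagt
TYMS: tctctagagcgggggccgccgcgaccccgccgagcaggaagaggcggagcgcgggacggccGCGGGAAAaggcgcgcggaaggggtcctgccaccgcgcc
PCNA: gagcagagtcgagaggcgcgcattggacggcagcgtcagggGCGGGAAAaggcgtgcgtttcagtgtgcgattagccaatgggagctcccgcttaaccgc
E2F1: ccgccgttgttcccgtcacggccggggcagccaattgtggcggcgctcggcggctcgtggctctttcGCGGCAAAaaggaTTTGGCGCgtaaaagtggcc
The MCM6 run shows 2 overlapping words, 1 on each strand, and its window holds 2 more upstream. RRM1 showed no such word in its window although it was among the genes that fell most clearly. The words were present in 10 of 17 genes with a window that fell in G10 and in 12 of 21 that did not pass the test. A match describes letters and is not evidence of binding.

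The arrays shared 1 scale, with medians from 5.85 to 5.97, and no pair of arrays was identical. The cluster of catalase, the transfected gene, ranged from 7.74 to 8.55 on G10 arrays, from 8.92 to 9.12 on A7 arrays, from 8.51 to 8.71 on PCDNA3 arrays and from 8.62 to 9.03 on A375 arrays. It was not higher on the arrays labelled G10 than in control (log2 fold change -0.38, adjusted p = 0.0526) and was 0.75 lower than on A7 arrays (adjusted p = 0.00221). In A7 against control limma did not call it either (log2 fold change 0.37, adjusted p = 0.124). The paper lists catalase among antioxidant genes that were upregulated in A7 and downregulated in G10. The labels G10 and A7 are used here as given, and directions rest on them. Of 10 melanocyte lineage markers 9 were measured, and 7 lay above the 95th percentile of olfactory receptor clusters (5.27, a level for genes that are not expressed) in every group, SOX10 and MITF among them. Of the endothelial and blood cell markers 6 of 7, and of the keratinocyte markers 3 of 6, lay below it in every group. All 43 replication genes lay above it on every array, the lowest value being 6.23 for POLE2 in G10.

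The 4 arrays of G10 did not form 1 group for these genes. Relative to each gene's mean over the 16 arrays, the median of the 43 genes was -0.80 and -0.71 on G10 replicates 1 and 2, and 0.18 and 0.15 on replicates 3 and 4. It lay between -0.08 and 0.02 on A7 arrays, between 0.11 and 0.46 on PCDNA3 arrays and between -0.07 and 0.12 on A375 arrays. On each of G10 replicates 1 and 2, 40 of the 43 genes were below all 8 control arrays, against 20.4% and 21.9% of all clusters. On G10 replicates 3 and 4 8 and 9 genes were below all control arrays, against 20.7% and 18.6% of all clusters, and 11 and 6 were above all of them, against 17.4% and 17.9%.

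**Figure D1:**
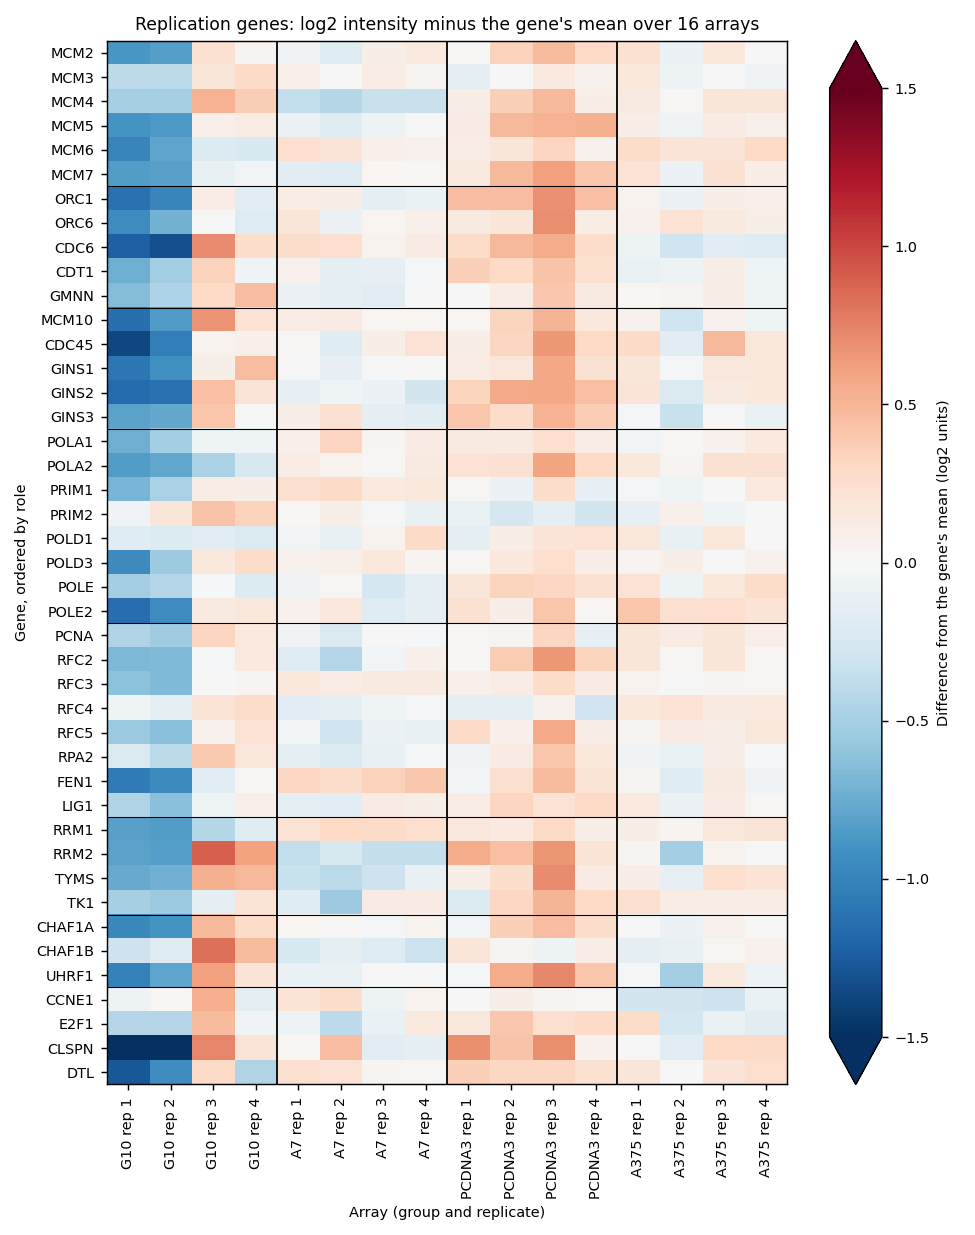
Each row is 1 of the 43 genes, ordered by role, and each column 1 array; colour gives the log2 intensity minus the gene's mean over the 16 arrays, from blue (lower) to red (higher), and differences beyond 1.5 take the end colour. G10 replicates 1 and 2 are blue for nearly all genes. Replicates 3 and 4 have medians of 0.18 and 0.15, within the range of the PCDNA3 arrays (0.11 to 0.46). Both lie above the highest A7 (0.02) and A375 (0.12) arrays.

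The split was wider for these genes than for the array as a whole. Their median range over the 4 arrays of a group was 1.01 log2 units in G10, 0.21 in A7, 0.38 in PCDNA3 and 0.20 in A375, whereas for all clusters it was 0.41, 0.35, 0.35 and 0.33 in the same groups. Of the 43 genes, 42 had their widest range in G10; the exception was POLD1, a subunit of polymerase delta, with a range of 0.04 in G10 and 0.40 in A7. Chosen after their values were seen, the widest were CLSPN, the checkpoint mediator claspin, with a range of 2.62 in G10, the licensing factor CDC6 with 2.03, MCM10 with 1.80 and the ribonucleotide reductase subunit RRM2 with 1.72. CLSPN read 7.19, 7.58, 9.81 and 9.27 on the 4 G10 arrays, against 8.91 to 9.78 with a median of 9.37 on the 8 control arrays. Across all clusters, G10 replicates 1 and 2 correlated at r = 0.994 and replicates 3 and 4 at 0.992, while the other pairs of G10 arrays lay between 0.984 and 0.987. The labels give no batch or date for these arrays. The main results for G10 are therefore given below with all 4 arrays and with replicates 1 and 2 left out. Those were the arrays where the median of the 43 genes was lowest, so higher values without them follow from this choice. The fit without them is a description and not an independent test.

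The first comparison set G10 against the control, the average of the PCDNA3 and A375 means; a negative log2 fold change is a lower level in G10, and each p value was adjusted for the number of clusters (Benjamini-Hochberg). With all arrays, 18 of the 43 genes fell and 1 rose at an adjusted p under 0.05 (limma over 33297 clusters, of which 7.9% were called lower and 9.92% higher). The change was negative for 39 genes, with a median log2 fold change of -0.41, against -0.04 over all clusters. Values of the groups did not overlap for 6 of the genes that fell, MCM6, ORC6, POLA1, POLA2, POLD1 and RRM1, against 4.35% of all clusters. Without G10 replicates 1 and 2, 3 genes were called lower (MCM6, POLA2 and RRM1, all of them among the 18), 3 were called higher, 21 changes were negative and the median was 0.044; of all clusters 5.96% were then called lower and 8.54% higher. Leaving out replicate 1 or replicate 2 alone gave 9 genes lower (2097 and 1946 of 33297 clusters). Leaving out replicate 3 or replicate 4 gave 28 and 23 (2681 and 2697 clusters).

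Of the MCM helicase, which unwinds DNA at the fork, 4 of 6 subunits fell: MCM6 -0.76, MCM7 -0.72, MCM5 -0.63 and MCM2 -0.54 on the log2 scale. MCM6 read 9.35, 9.55, 10.13 and 10.11 on the G10 arrays, 10.59, 10.53, 10.42 and 10.41 on the A7 arrays, and 10.40 to 10.66 with a median of 10.54 on the control arrays. All 4 G10 values lay below every A7 and control value, replicates 1 and 2 far more than replicates 3 and 4. The mean was 9.78 ± 0.40 in G10, 10.51 ± 0.11 in PCDNA3 and 10.58 ± 0.05 in A375 (SD, n = 4 each), a level 1.69-fold lower than control (log2 fold change -0.76, SE 0.12, adjusted p = 0.00041). Without replicates 1 and 2 the log2 fold change was -0.43 (adjusted p = 0.0041), and MCM6 kept its call under all 29 alternatives that left the limit on adjusted p at 0.05.

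MCM7 read 9.34, 9.36, 10.07 and 10.14 on the G10 arrays, 10.01, 9.99, 10.20 and 10.20 on the A7 arrays and 10.09 to 10.80 with a median of 10.40 on the control arrays (log2 fold change -0.72, SE 0.15, adjusted p = 0.00253). Replicates 1 and 2 stood apart, replicate 3 lay just under the control range and replicate 4 at its lower end. Its log2 fold change without replicates 1 and 2 was -0.34 (adjusted p = 0.0815). MCM2 read 8.49, 8.54, 9.59 and 9.41 in G10, 9.31, 9.18, 9.46 and 9.51 in A7 and 9.28 to 9.84 with a median of 9.56 in control (log2 fold change -0.54, SE 0.18, adjusted p = 0.0492). Its replicates 3 and 4 lay inside the control range, and without replicates 1 and 2 the log2 fold change was -0.05 (adjusted p = 0.878); 17 of the same 29 alternatives ended the call of MCM2. MCM5 had a log2 fold change of -0.15 without replicates 1 and 2 (adjusted p = 0.433). MCM3 (-0.10) and MCM4 (-0.22) did not pass the test with all arrays.

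Of 5 genes of origin licensing, ORC1 (-0.81) and ORC6 (-0.66), subunits of the origin recognition complex, fell. ORC1 read 7.42, 7.56, 8.66 and 8.38 in G10, 8.66, 8.64, 8.42 and 8.45 in A7 and 8.45 to 9.23 with a median of 8.81 in control (adjusted p = 0.004). Replicate 3 was inside the control range and replicate 4 just under it, at 8.38 against a lowest control value of 8.45. The loading factors CDC6 (-0.50) and CDT1 (-0.39) and the CDT1 inhibitor GMNN (-0.19) did not pass the test. CDC6 was low on G10 replicates 1 and 2, at 9.01 and 8.93, and above the control range (9.94 to 10.80 with a median of 10.33) on replicate 3, at 10.95. Without replicates 1 and 2, ORC1 and ORC6 had log2 fold changes of -0.30 and -0.30 (adjusted p = 0.0748 and 0.183).

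Among the genes that switch the helicase on, CDC45, which travels with MCM and GINS at the fork, fell by 0.84 on the log2 scale (SE 0.23, adjusted p = 0.0187). It read 7.31, 7.65, 8.73 and 8.76 in G10, 8.70, 8.50, 8.77 and 8.90 in A7 and 8.52 to 9.33 with a median of 8.97 in control. Replicates 1 and 2 were far below all other arrays and replicates 3 and 4 inside the control range. The log2 fold change was -0.20 when replicates 1 and 2 were left out (adjusted p = 0.491). The GINS subunits GINS1 (-0.57), GINS2 (-0.68) and GINS3 (-0.43) and MCM10 (-0.38) had negative changes that did not pass the test.

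**Figure D2:**
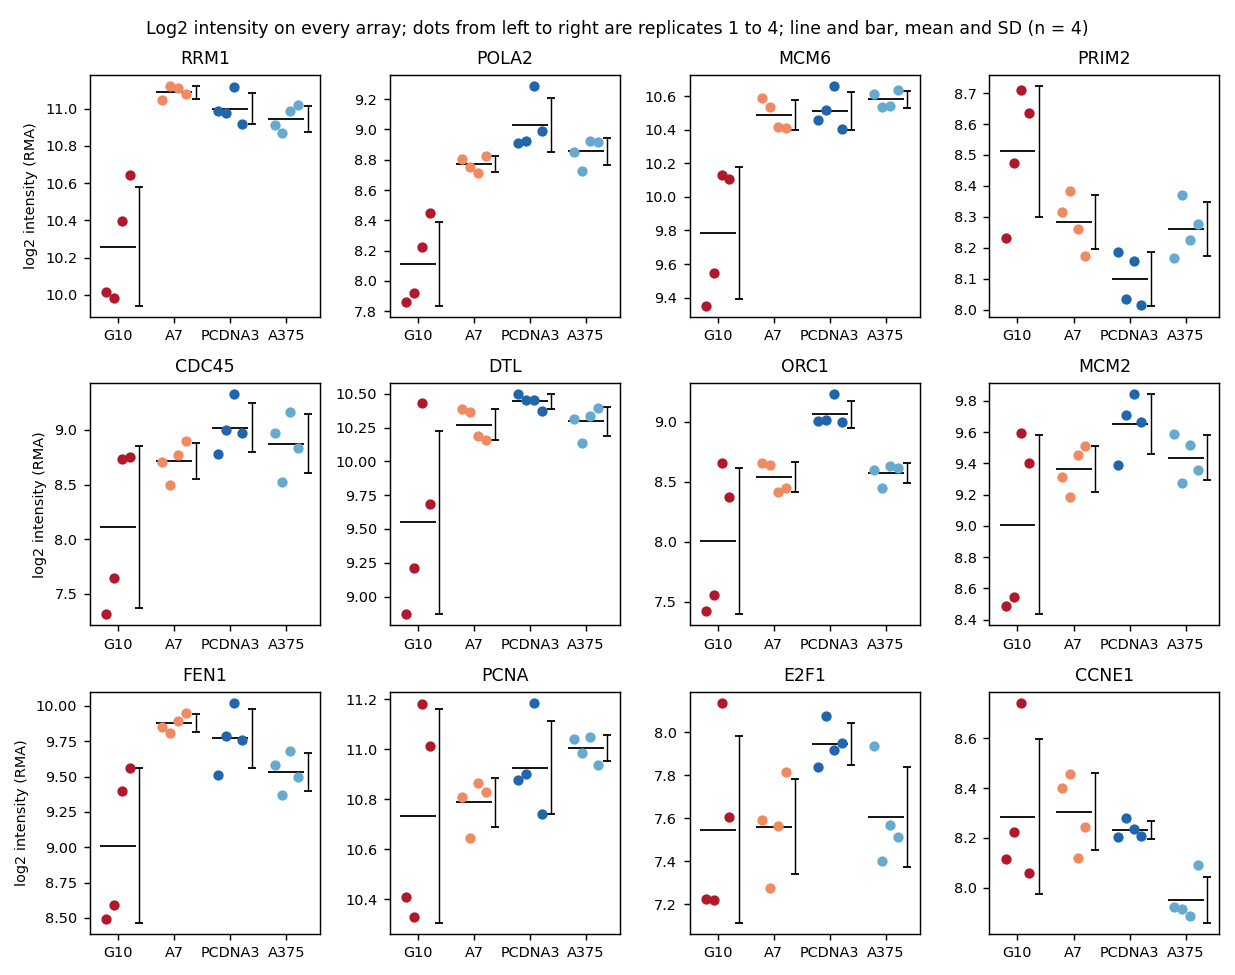
Log2 intensity of 12 of the genes on each of the 16 arrays, by group (G10, A7, PCDNA3, A375); dots are replicates 1 to 4, and the line and bar give the mean and SD (n = 4). RRM1, POLA2 and MCM6 are lower on all 4 G10 arrays than on every control array, while CDC45, MCM2 and PCNA are low on G10 replicates 1 and 2 only.

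Of 8 polymerase and primase genes, 5 fell and 1 rose. The lower genes were POLA1 (-0.44) and POLA2 (-0.83) of polymerase alpha, which starts new strands with primase, POLD1 (-0.27) of polymerase delta, and POLE (-0.50) and POLE2 (-0.68) of polymerase epsilon. Without replicates 1 and 2, POLA1 (-0.17), POLD1 (-0.27), POLE (-0.32) and POLE2 (-0.08) were not called. POLA2 read 7.86, 7.92, 8.22 and 8.45 on the G10 arrays, 8.80, 8.75, 8.71 and 8.83 on the A7 arrays and 8.73 to 9.29 with a median of 8.92 on the control arrays. Every G10 value was below every value of A7 and control. Its level was 8.11 ± 0.28 in G10, 9.03 ± 0.18 in PCDNA3 and 8.85 ± 0.09 in A375 (SD, n = 4 each), 1.78-fold lower than control (log2 fold change -0.83, SE 0.11, adjusted p = 4.18e-05). This was the smallest adjusted p of the 43, and the log2 fold change without replicates 1 and 2 was -0.61 (adjusted p = 0.00148).

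POLD1 had 4 G10 values within 0.04 log2 units of each other (7.69, 7.67, 7.70 and 7.65), just below the lowest control value of 7.74; its adjusted p was 0.0478, and 17 of the same 29 alternatives ended the call. The primase subunit PRIM1 (-0.27) and POLD3 (-0.36) did not pass the test. PRIM2, the large primase subunit, was the only gene that rose. It read 8.23, 8.47, 8.71 and 8.63 in G10, 8.32, 8.38, 8.26 and 8.17 in A7 and 8.02 to 8.37 with a median of 8.18 in control (log2 fold change 0.33, SE 0.09, adjusted p = 0.0125). Replicate 1 lay inside the control range and the other G10 arrays above it, and without replicates 1 and 2 the log2 fold change was 0.49 (adjusted p = 0.00151). It was not called without replicate 3 (adjusted p = 0.0504) or with A375 alone as control (adjusted p = 0.113). PRIM2 has near-identical copies in the genome, so its value is uncertain.

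Of 8 genes of the clamp, its loader and strand joining, 4 fell: RFC2 (-0.53) and RFC3 (-0.39) of the loader, the flap nuclease FEN1 (-0.64) and the ligase LIG1 (-0.41), which seals Okazaki fragments. FEN1 read 8.49, 8.59, 9.39 and 9.56 in G10, 9.85, 9.81, 9.90 and 9.95 in A7 and 9.37 to 10.02 with a median of 9.63 in control (adjusted p = 0.0144). Replicates 3 and 4 lay within the control range but below all A7 arrays. Without replicates 1 and 2 its log2 fold change against control was -0.17 (adjusted p = 0.415). RFC2 (-0.16), RFC3 (-0.06) and LIG1 (-0.13) were not called in that fit either. PCNA, the sliding clamp itself, read 10.41, 10.33, 11.18 and 11.01 in G10, 10.81, 10.65, 10.86 and 10.83 in A7 and 10.74 to 11.19 with a median of 10.96 in control. Replicates 1 and 2 lay below the control range and replicates 3 and 4 inside it, and the change did not pass the test (log2 fold change -0.23, SE 0.14, adjusted p = 0.312). RFC4 (0.05), RFC5 (-0.41) and the single-strand binding subunit RPA2 (-0.08) did not pass it either.

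Nucleotide supply showed 2 subunits of 1 enzyme that differed in call. Ribonucleotide reductase, which makes deoxyribonucleotides, joins the large subunit RRM1 with RRM2. RRM1 read 10.01, 9.98, 10.40 and 10.64 on the G10 arrays, 11.04, 11.12, 11.11 and 11.08 on the A7 arrays and 10.87 to 11.12 with a median of 10.98 on the control arrays. All 4 G10 arrays were below the others, and the level was 1.64-fold lower than control (log2 fold change -0.71, SE 0.10, adjusted p = 0.00015). RRM2 read 8.99, 8.97, 10.69 and 10.40 in G10, 9.42, 9.55, 9.43 and 9.44 in A7 and 9.29 to 10.46 with a median of 9.92 in control. It was below the control range on G10 replicates 1 and 2, above it on replicate 3 and near its top on replicate 4, and was not called over all 4 (log2 fold change -0.21, SE 0.27, adjusted p = 0.683). Without replicates 1 and 2, RRM1 was still called lower (log2 fold change -0.45, adjusted p = 0.0027) and RRM2 was called higher (0.57, adjusted p = 0.0194). TYMS, which makes thymidylate, and TK1, which salvages thymidine, had changes of -0.32 and -0.43 that did not pass the test.

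No gene of chromatin assembly and methylation was called by limma, also not at an unadjusted p under 0.05. The chromatin assembly factor subunits CHAF1A and CHAF1B had changes of -0.41 and 0.19, and UHRF1, which guides maintenance methylation, -0.40. CHAF1B read 8.72, 8.84, 9.86 and 9.51 in G10, against 8.89 to 9.21 with a median of 9.07 in control, and was called higher without replicates 1 and 2 (0.64, adjusted p = 0.000883). Of the G1/S and checkpoint genes, DTL, the substrate receptor that targets CDT1 for destruction, fell: it read 8.87, 9.21, 10.43 and 9.69 in G10, 10.39, 10.36, 10.19 and 10.16 in A7 and 10.14 to 10.50 with a median of 10.38 in control (log2 fold change -0.82, SE 0.19, adjusted p = 0.00698). Replicate 3 lay within the control range and the other G10 arrays below it, and without replicates 1 and 2 the log2 fold change was -0.31 (adjusted p = 0.195).

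The transcription factor E2F1 read 7.22, 7.22, 8.14 and 7.61 in G10, 7.59, 7.27, 7.56 and 7.81 in A7 and 7.40 to 8.07 with a median of 7.88 in control. Its groups overlapped (log2 fold change -0.23, SE 0.16, adjusted p = 0.392). CCNE1, the cyclin E that drives S phase entry with CDK2, read 8.11, 8.23, 8.74 and 8.06 in G10, 8.40, 8.46, 8.12 and 8.24 in A7 and 7.89 to 8.28 with a median of 8.15 in control. No G10 value lay below the control range, and the change did not pass the test (log2 fold change 0.19, SE 0.11, adjusted p = 0.278). CLSPN had the most negative value of all 43, -0.91, with an SE of 0.37 and an adjusted p of 0.111. Its second cluster gave -0.88 (adjusted p = 0.0724).

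Genes that lie on chromosome 11 were noticed after the values were seen. RRM1, POLA2 and FEN1, on that chromosome by RefSeq, fell in G10, and their 4 G10 values were all below every A7 value. POLD3, the only other of the 43 there, did not pass the test. MCM6 (chromosome 2), POLA1 (X), RFC3 (13), PRIM1 (12) and POLD1 (19) also had all 4 G10 values below every A7 value. A role of chromosome 11 was not tested.

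**Figure D3:**
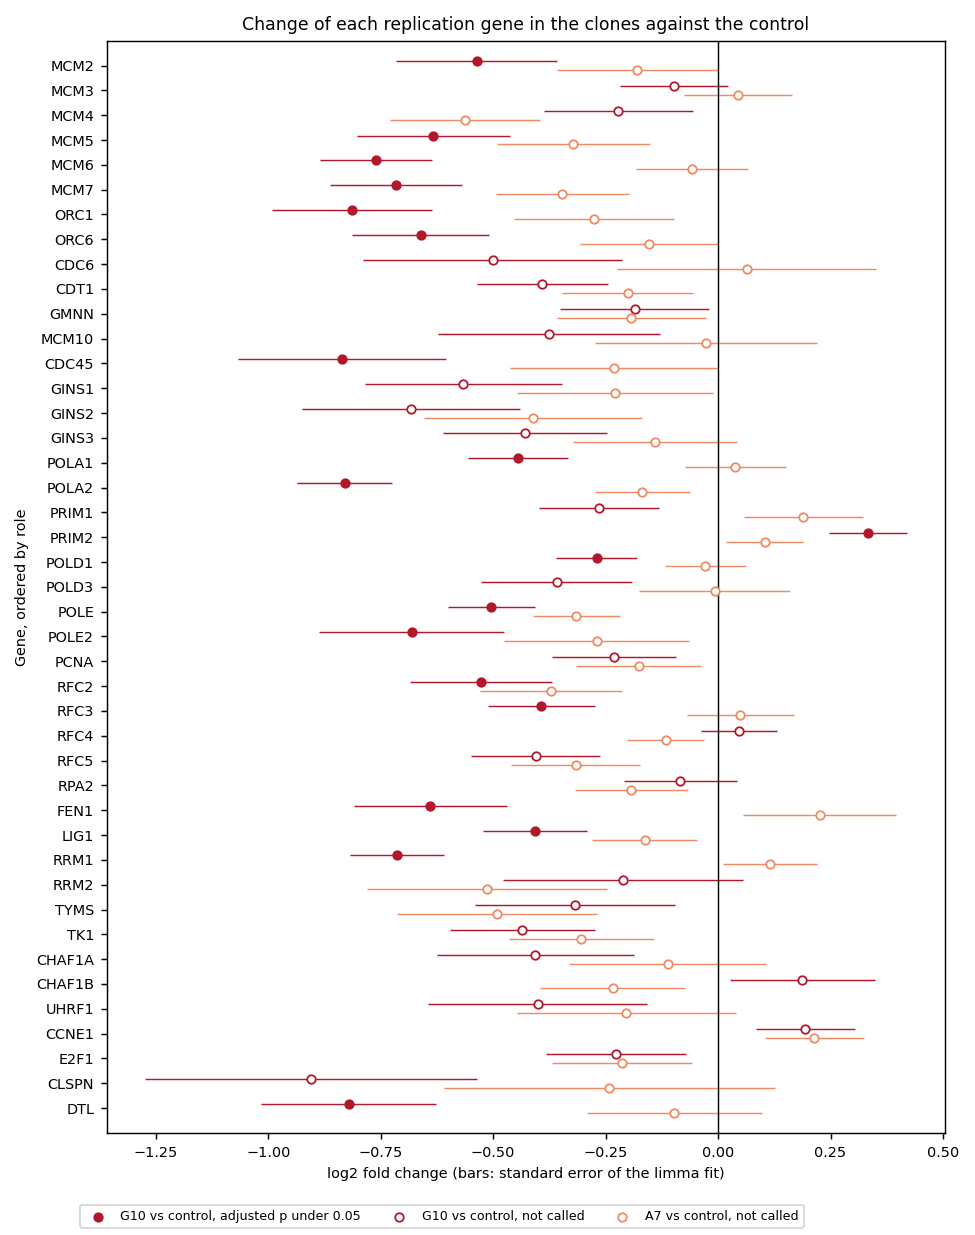
Log2 fold change against the control of the 43 genes in G10 (red) and A7 (orange), ordered by role; bars are standard errors of the limma fit, and filled dots passed an adjusted p under 0.05. In G10 18 genes passed below 0 and PRIM2 above it, and in A7 every dot is open, with MCM4 lowest at -0.56.

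The second comparison set A7 against the same control arrays. No gene of the 43 was called by limma at an adjusted p under 0.05, while 2.23% of all clusters were called lower and 3.46% higher; at an unadjusted p under 0.05, 6 genes were lower and none higher. The change was negative for 34 genes, with a median of -0.18 against -0.02 over all clusters, and ranged from -0.56 for MCM4 to 0.23 for FEN1. MCM4 read 9.38, 9.32, 9.41 and 9.41 on the A7 arrays, against 9.77 to 10.23 with a median of 9.91 on the control arrays, an adjusted p of 0.0611. It was 1 of 3 genes, with RFC5 (-0.32) and CHAF1B (-0.23), whose A7 values all lay below the control values, against 2.47% of all clusters. POLE (-0.31, adjusted p = 0.0718), RRM2 (-0.51) and TYMS (-0.49) came next in size or p, whereas RRM1 (0.12), PRIM1 (0.19) and CCNE1 (0.21) had positive values. Whether A7 and control share a level cannot be read from tests that missed the threshold; with only A7 and control arrays in the fit, 8 genes were called lower, against 3.09% of all clusters.

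The clones were then compared with each other, a test of the difference between their changes. In G10, 7 genes were lower than in A7 (7.38% of all clusters were called lower and 7.83% higher): FEN1 (-0.87), RRM1 (-0.83), DTL (-0.72), MCM6 (-0.70), POLA2 (-0.66), POLA1 (-0.48) and RFC3 (-0.44). RRM1 averaged 10.26 ± 0.32 in G10 and 11.09 ± 0.04 in A7 (SD, n = 4 each), 1.78-fold lower in G10 (adjusted p = 0.000157). FEN1 averaged 9.01 ± 0.55 in G10 and 9.88 ± 0.06 in A7, 1.82-fold lower in G10 (adjusted p = 0.00581). Values did not overlap, with G10 lower, for 8 genes, against 8.48% of all clusters; these were 6 of the 7, all but DTL, with PRIM1 (-0.45, adjusted p = 0.0587) and POLD1 (-0.24, adjusted p = 0.147). No gene was called higher, and 2 were at an unadjusted p under 0.05.

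The median over the 43 genes was -0.29 between the clones, against -0.01 over all clusters. Without G10 replicates 1 and 2 it was 0.19, with 3 genes called lower, MCM6 (-0.37), POLA2 (-0.44) and RRM1 (-0.57), and 9 called higher, against 7.08% lower and 8.24% higher of all clusters. The 9 were RRM2 (1.08), CHAF1B (0.87), MCM4 (0.81), TYMS (0.80), GMNN (0.48), GINS2 (0.46), RPA2 (0.41), PRIM2 (0.39) and RFC4 (0.33). RRM1 and RRM2 stood on opposite sides of A7 on G10 replicates 3 and 4: RRM1 at 10.40 and 10.64 against a lowest A7 value of 11.04, and RRM2 at 10.69 and 10.40 against a highest A7 value of 9.55.

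The control itself joins 2 kinds of cells, which were compared to see whether the empty vector cells match A375. No gene of the 43 was called by limma in PCDNA3 against A375, where 0.045% of all clusters were called higher and 0.0781% lower. At an unadjusted p under 0.05, 4 were higher and 1 lower. This fit shares 1 estimate of spread over all groups, and 42 of the 43 genes had their widest range in G10. With only PCDNA3 and A375 arrays in the fit, 3 genes were called higher, against 234 of 33297 clusters. The value was positive for 38 genes, with a median of 0.15 against 0.01 over all clusters. CDC6 (0.58), RRM2 (0.57), GINS3 (0.51), ORC1 (0.49), GINS2 (0.41), CDT1 (0.36), CCNE1 (0.28) and RFC3 (0.11) had all 4 PCDNA3 values above all 4 A375 values, 8 genes against 6.26% of all clusters. RFC4 went the other way (-0.30, adjusted p = 0.221). The choice of control moved the result for G10: against PCDNA3 alone 19 of the 43 genes were lower (7.01% of all clusters), and against A375 alone 7 (6.21%).

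Further genes of the same pathways, from lists of names, were read on the same arrays. The counts of all lists below stand against these shares of all clusters. In G10 against control, 7.9% were lower and 9.92% higher, and 5.96% and 8.54% without replicates 1 and 2. In G10 against A7, 7.38% were lower and 7.83% higher, and in A7 against control 2.23% and 3.46%. Of 35 other fork and licensing genes, 11 fell and 2 rose in G10 against control, with a median of -0.11; the histone chaperone ASF1B (-0.94), the fork protection factor TIPIN (-0.73) and the GINS subunit GINS4 (-0.67) fell, and the fork factor DONSON rose (0.67). DONSON read 8.77, 8.87, 9.13 and 8.86 in G10, against 8.08 to 8.49 with a median of 8.20 in control, above it on every array. When replicates 1 and 2 were left out, 4 of the 35 were lower and 6 higher. In that fit ASF1B was still lower (-0.48, adjusted p = 0.00789) and DONSON higher (0.76, adjusted p = 0.000435). TIPIN (-0.14, adjusted p = 0.404) and GINS4 (-0.26, adjusted p = 0.28) were not called. Against A7, 5 of the 35 fell in G10 and 1, DONSON, rose. In A7 against control, 6 fell, among them CDC7 (-0.42), the kinase that fires licensed origins, and the histone chaperone ASF1A (-0.51).

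Of 19 other nucleotide supply genes, 4 fell and 3 rose in G10 against control (7.9% and 9.92% of all clusters). DCTD, the deaminase that converts dCMP to dUMP, rose by 0.92 on the log2 scale (adjusted p = 1.05e-06), and the purine synthesis enzyme GART by 0.54. RRM2B, the ribonucleotide reductase subunit induced by p53, read 10.05, 10.01, 9.47 and 9.48 in G10, 9.13, 9.17, 9.05 and 8.96 in A7 and 9.09 to 9.29 with a median of 9.14 in control (log2 fold change 0.60, SE 0.11, adjusted p = 0.000848). All G10 values were above every other array, and those of replicates 1 and 2 were the highest. Without those, 1 of the 19 was lower and 5 were higher, and RRM2B was still called higher (0.32, adjusted p = 0.0179).

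Of the 7 CDK inhibitors measured, CDKN1A (p21) and CDKN1B (p27) rose in G10 against control. CDKN1A read 9.47, 9.46, 8.88 and 8.31 in G10, 8.45, 8.39, 8.37 and 8.37 in A7 and 7.89 to 8.15 with a median of 8.04 in control (log2 fold change 0.99, SE 0.16, adjusted p = 0.000329). All 4 A7 values of CDKN1A also lay above the control range, although limma called no CDK inhibitor in A7 against control. G10 replicate 4 lay below every A7 value. CDKN1A was highest on the G10 arrays where the replication genes were lowest. Without them it was called higher against control (0.56, adjusted p = 0.00405) and not against A7 (0.20, adjusted p = 0.356). Without these arrays CDKN1B was not called against control (0.25, adjusted p = 0.243) and CDKN3, a phosphatase of CDK2, was called lower (-0.44, adjusted p = 0.0349). Of 25 other G1/S genes, 3 fell, CCND1 (-0.63), MYBL2 (-0.66) and SKP2 (-0.41), and 2 rose, E2F5 (0.88) and RB1 (0.42). These counts were near the shares over all clusters (7.9% lower and 9.92% higher). With replicates 1 and 2 left out, 0 of the 25 were called lower (CCND1 -0.17, MYBL2 -0.16 and SKP2 -0.13) and 3 higher, E2F5, RB1 and RBL1. Of 17 checkpoint and fork repair genes, 4 fell, among them the checkpoint kinase CHEK1 (-0.71), and 1 rose, with a median of -0.26. Leaving those arrays out gave 1 lower, CHEK1 (-0.37), and 2 higher, BRCA1 and BRIP1, of the 17, with a median of 0.07.

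Of 26 genes of mitosis, 14 fell in G10 against control (7.9% of all clusters), with a median of -0.45. Without replicates 1 and 2, 4 were called lower, PLK1, BUB1B, CDC20 and CCNB2, with a median of -0.17. The mean of the 26 was 8.91, 9.03, 9.41 and 9.92 on G10 replicates 1 to 4. It ranged from 9.43 to 9.53 in A7, from 9.69 to 10.03 in PCDNA3 and from 9.67 to 9.86 in A375. Replicate 3 was thus below every A7 and control array here, unlike in the median of the replication genes. The mitotic kinase PLK1 read 8.87, 8.94, 9.55 and 9.90 in G10, 10.18, 10.23, 10.25 and 10.33 in A7 and 10.00 to 11.05 with a median of 10.54 in control (log2 fold change -1.22, SE 0.17, adjusted p = 8.5e-05). All 4 G10 values were below all others, replicates 1 and 2 most. In A7 against control 1 of 26, CCNB2 (-0.49), fell, and the median was -0.34. The mean of the 26 was nevertheless lower on all 4 A7 arrays than on every control array.

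**Figure D4:**
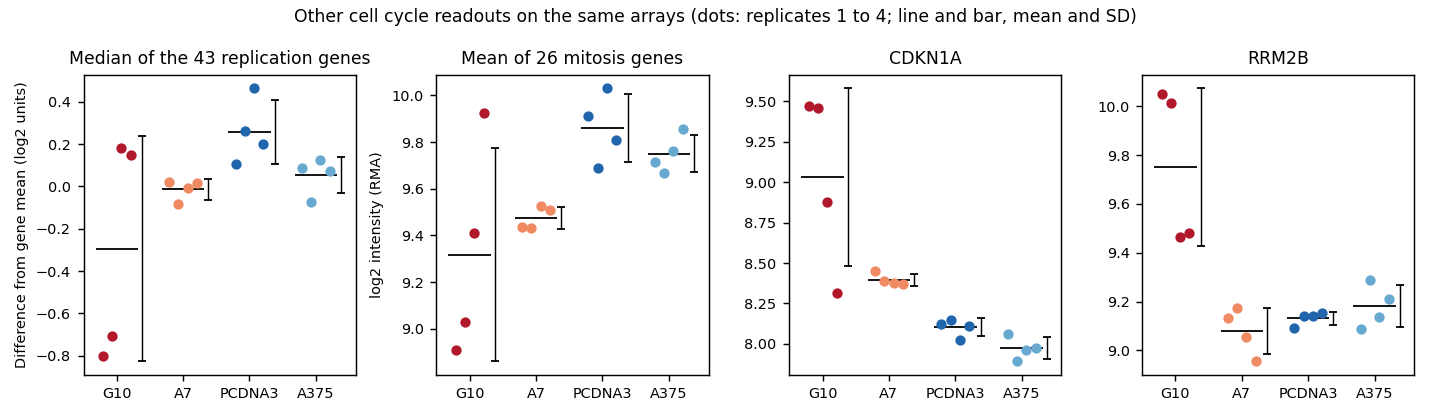
Values on each array by group (G10, A7, PCDNA3, A375); from left to right the median of the 43 replication genes as difference from the gene means, the mean log2 intensity of 26 mitosis genes, and the log2 intensities of CDKN1A and RRM2B; dots are replicates 1 to 4, and line and bar are mean and SD (n = 4). G10 replicates 1 and 2 hold the lowest replication and mitosis values and the highest CDKN1A (9.47 and 9.46) and RRM2B (10.05 and 10.01). Replicate 3 is also below all A7 and control arrays in the mitosis mean (9.41), but not in the replication median (0.18).

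The mean of the fibroblast markers and the level of PMEL differed between G10 replicates 1 and 2 and replicates 3 and 4. With replicates 1 and 2 left out, 3 of the 7 fibroblast markers were called lower against control. These were FAP (-1.72), PDGFRA (-0.87) and LUM (-0.56), whereas COL1A1 (-0.17), COL3A1 (-0.14), DCN (-0.06) and THY1 (-0.21) were not called. The mean of 7 fibroblast markers was 6.01, 5.92, 5.31 and 5.45 on G10 replicates 1 to 4, and it ranged from 5.88 to 6.03 in A7, from 5.68 to 5.87 in PCDNA3 and from 5.95 to 6.08 in A375; in every group 4 of these markers lay above 5.27 and 1 below it. Of the 9 melanocyte lineage markers, PMEL and PAX3 rose in G10 against control; with replicates 1 and 2 left out, PMEL, MLANA and PAX3 were called higher and MITF lower (-0.70). The pigment gene PMEL read 9.16, 9.30, 10.82 and 11.34 in G10, 8.94, 8.93, 8.67 and 8.60 in A7 and 6.87 to 9.35 with a median of 7.26 in control. The mean of 9 melanocyte lineage markers ranged from 8.26 to 8.62 in G10, from 8.38 to 8.71 in A7, from 7.67 to 8.35 in PCDNA3 and from 7.80 to 8.19 in A375. The mean of the 7 endothelial and blood cell markers stayed between 4.26 and 4.36 in G10 and between 4.29 and 4.55 in the other groups, and that of the 6 keratinocyte markers was 5.35, 5.23, 5.41 and 5.34 on G10 replicates 1 to 4 and 5.20 to 5.53 in the other groups. The part of cell identity in the values of the replication genes was not tested.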

How the data were processed

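The values deposited by the authors are log2 intensities after RMA, which corrects background, equalizes the distributions of the arrays and combines the probes of each of 33297 transcript clusters. The authors worked in R with Bioconductor, with RMA and limma releases not given in the sources used here. Probe-level data were not analysed here. All 16 columns were matched to a sample by their names. Gene symbols came from the annotation of the platform, with older symbols updated through RefSeq, and only the 19460 clusters with 1 symbol were named; 1754 carried several symbols and 12083 none. Of 168 further listed genes, 158 had such a cluster.

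All clusters were fitted in R 4.3.3 with limma 3.58.1, with 1 mean per group, eBayes moderation (3.57 prior degrees of freedom) and Benjamini-Hochberg adjustment over all clusters, and a cluster was called at an adjusted p under 0.05. The fit was first tested on simulated data with known changes. The comparisons were G10 and A7 against the average of the PCDNA3 and A375 means, which share their control arrays, G10 against A7, and PCDNA3 against A375. The number of arrays limits the precision.

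Every member could be named with its values. Values on every array were given for members with the largest changes that passed the test, up to 6 per direction against control and up to 4 between the clones, and for E2F1, CCNE1, PCNA and MCM2 whatever their change; up to 4 genes were named per further list. CDC6, CLSPN, RRM2, MCM4, MCM10, CHAF1B, POLD1 and the further genes given array by array were added after their values were seen. The members, roles, lists and rule were chosen with earlier results of these data known. E2F and CCAAT words were searched in RefSeq promoter windows of GRCh38.p14. Alternatives concerned the control, the arrays fitted, normalization, variance model, array weights, replicate block, filters, the limit on adjusted p and each array left out in turn; leaving out G10 replicates 1 and 2 together was chosen after seeing the data.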

Additional observations from a re-analysis of the deposited data

Results flagged for a closer look

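Single arrays lay far from the other 3 of their group in 11 of 172 combinations of gene and group; chance gives about 1 in 20. In PCDNA3, replicate 3 was high for ORC1 (9.23, against at most 9.01), ORC6 (9.19, against 8.60 to 8.68) and POLA1 (9.29, against 9.14 to 9.17), and replicate 1 was low for MCM5 (10.47, against 10.83 to 10.88). In A375, replicate 2 was low for ORC1 (8.45, against 8.60 to 8.63), GINS1 (9.83, against 10.01 to 10.03), GINS2 (8.32, against 8.68 to 8.73) and RRM2 (9.29, against 9.79 to 9.85), and replicate 1 was high for TK1 (9.65, against 9.52). In A7, replicate 2 was low for GINS1 (9.72, against 9.84 to 9.85) and high for RRM2 (9.55, against 9.42 to 9.44). No G10 array stood apart in this way, but the rule could not have flagged the split within G10. It seeks a single array far from the other 3 of its group. G10 replicates 1 and 2 were low together for most of the replication genes, and a pair is not flagged. The lack of a flag in G10 therefore says nothing about the spread of its arrays.

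The change in G10 differed from the change in A7, tested as G10 against A7, for 7 of the 43 genes. The differences in log2 fold change were -0.87 for FEN1 (-0.64 in G10 and 0.23 in A7), -0.83 for RRM1 (-0.71 and 0.12), -0.72 for DTL (-0.82 and -0.10), -0.70 for MCM6 (-0.76 and -0.06), -0.66 for POLA2 (-0.83 and -0.17), -0.48 for POLA1 (-0.44 and 0.04) and -0.44 for RFC3 (-0.39 and 0.05). Without G10 replicates 1 and 2 the difference was still called for MCM6, POLA2 and RRM1.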

How the results depend on the processing

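Leaving out G10 replicates 1 and 2 was chosen after seeing that these genes were lowest there, so it was bound to raise the medians. Both turned positive. Against control 3 genes were lower and 3 higher (5.96% and 8.54% of all clusters) with a median of 0.044. Against A7 3 were lower and 9 higher (7.08% and 8.24% of all clusters) with a median of 0.19. RRM2 against control turned to 0.57 and GINS2 against A7 to 0.46. With single arrays left out, the genes lower in G10 against control numbered 9 to 28 (1946 to 2697 of 33297 clusters), with 0 to 1 higher. Those lower in A7 against control numbered 0 to 2 (417 to 840 clusters). Those lower in G10 against A7 numbered 4 to 12 (1876 to 2546 clusters), with 0 to 2 higher. Fewest came without G10 replicate 1 or 2 (9 against control) and, against A7, also without A7 replicate 2 (4); most came without G10 replicate 3 (28 and 12). The call of PRIM2 was lost without G10 replicate 3. With A375 alone as control, 7 genes were lower and 0 higher in G10 (2068 and 2672 of 33297 clusters). Array weights gave 36 lower against control (3576 clusters), with a median of -0.64 against -0.41 without weights, and 2 lower in A7 (1178). Against A7 they gave 22 lower (3170 clusters) with a median of -0.57. A limit of 0.001 left 3 lower and 0 higher against control (738 and 1108 clusters), and 1 lower against A7 (815). With only the arrays compared in the fit, 8 genes were lower in A7 (1030 of 33297 clusters) and 4 lower in G10 against A7 (1666). In that fit 3 were higher in PCDNA3 against A375 (234 clusters). In A7, further quantile normalization gave 1 lower gene (810 of 33297 clusters). There 2 genes were lower when only clusters above the olfactory receptor level (790 of 20376) or with 1 symbol (749 of 19460) were tested. A fit with replicate number as a replicate block gave 1 lower gene in A7 (685 of 33297 clusters). It gave 19 lower and 1 higher in G10 against control (2572 and 3171 clusters), and 7 lower in G10 against A7 (2355). The labels do not say that numbers pair arrays. Of 24 same-numbered pairs of arrays, 3 deviated together at r over 0.1 (range -0.16 to 0.23), and 5 of 16 arrays correlated best with their own number. The cause of these shifts was not tested. MCM6, POLA2 and RRM1 kept their call against control in the 29 alternatives, and against A7 in the 27, that left the limit at 0.05; at 0.001 all 3 passed against control and RRM1 alone against A7. The groups of 4 arrays and the spread in G10 limit what the tests can show.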
